A study of Mus musculus with 14 samples.

Results

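The FASTK family and 2 partner RNA-binding proteins were followed across mouse blood progenitors that differed in the mitochondrial DNA polymerase gene Polg and in forced expression of N-Myc. The list holds 8 nuclear genes whose proteins act on mitochondrial RNA: Fastk, Fastkd1, Fastkd2, Fastkd3, Fastkd5, Tbrg4, Lrpprc and Slirp. Probe sets were taken by the gene symbol of the array platform, and 6 of the 8 genes had one, out of 22206 probe sets tested in all. Fastkd5 and Tbrg4 are not listed in the probe table used here and have no value. Each of the 6 measured genes had a single probe set, so no choice between probe sets was needed. The members were chosen by gene name with results of these arrays known, and the measured value behind that choice was the large Fastkd2 difference between NMyc and Ctrl cells. That difference is therefore given as a description, without a p-value.

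FASTK proteins are encoded in the nucleus, imported into mitochondria and share a set of FAST and RAP domains. Mitochondrial DNA is read into long transcripts that must be cut, matured, modified and protected, and each family member acts on its own subset of these RNAs. Fastkd2 binds the large ribosomal RNA and takes part in assembly of the mitochondrial ribosome, and Fastkd5 acts at transcript ends that no transfer RNA marks. Lrpprc and Slirp form a complex that keeps mature mitochondrial messengers stable and supports their polyadenylation and translation. Most of these roles were worked out in human cells and in mice. Blood progenitors depend on mitochondrial translation when they proliferate and differentiate.

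The cells were lineage-negative bone marrow cells (hematopoietic progenitor cells, HPCs) of Polg mut/mut (Hom), Polg wt/mut (Het) or Polg wt/wt (WT) mice, whose age is not given in the labels. After a culture step they were placed on retronectin with retroviral supernatant of a mouse packaging line. The virus carried N-Myc with a yellow fluorescent protein (NMyc, MSCV-NMyc-IRES-YFP) or the fluorescent protein alone (Ctrl, MSCV-IRES-YFP), both from the viral MSCV promoter, and the labels record no sort for fluorescence. Every group therefore holds cultured, virus-exposed cells, and none was left without virus. There were 14 Affymetrix arrays: 2 Hom-NMyc, 2 Het-NMyc, 2 WT-NMyc, 2 Hom-Ctrl, 3 Het-Ctrl and 3 WT-Ctrl. The labels call them biological replicates without saying whether each came from its own animals, so a p-value speaks of the spread among these arrays only. The number of arrays limits the precision. Values are log2 probe-set levels, in which a difference of 1.00 would be a doubling.

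Mycn, the gene carried by the NMyc vector, stood at 12.15 to 12.38 on the 6 NMyc arrays. On the Ctrl arrays it stood at 9.77 on the library labelled Hom-Ctrl replicate 1, at 7.61 on Hom-Ctrl replicate 2, and at 7.43 to 7.76 on the other 6. That 1 library stands apart, so the members' values that rest on Hom-Ctrl are also given without it. Polg itself was at 7.29 and 7.44 in Hom-NMyc cells, at 7.43 and 7.63 in Het-NMyc cells and at 7.45 and 7.65 in WT-NMyc cells. In Ctrl cells Polg was at 6.95 and 7.04 (Hom), at 7.23 to 7.42 (Het) and at 6.91 to 7.67 (WT). Both Hom-Ctrl values lay within the WT-Ctrl range and below all Het-Ctrl values, and both Hom-NMyc values lay below both WT-NMyc values. No Polg difference between genotypes was called. Averaged over genotypes, Polg was called higher with NMyc, by 0.30 (SE 0.11, limma, adjusted p = 0.0488), with NMyc and Ctrl arrays overlapping. Of 11 measured markers of blood and progenitor cells, 4 fell with NMyc (the pan-hematopoietic Ptprc by 1.56, Meis1 by 1.29, Cd34 by 0.97 and Kit by 0.30 on the log2 scale, limma, adjusted p = 1.33e-08, 7.97e-07, 2.16e-06 and 0.0360), 0 rose and 7 were not called. Positive control probe sets stood above negative ones by 4.04 to 4.52 log2 units on NMyc arrays and by 3.60 to 4.17 on Ctrl arrays. The part of this contrast in the results was not tested. All 6 measured members exceeded the array's median negative control set on 14 of 14 arrays, with the smallest margin, 0.77, at Fastkd2.

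The promoters of the members differ in sequence although the genes share a task. The 4 printed here belong to the measured gene with the largest NMyc minus Ctrl difference (Fastkd2), the only member with a canonical E-box (Fastkd1), the member with the most ETS-like matches (Slirp) and the gene with the smallest difference (Fastk). Each runs 5′ to 3′ on the gene's strand, from 250 bases before to 50 bases from the start used in RefSeq's promoter table, build GRCm38.p6. That start is the outer boundary of the gene for Fastkd1 and Slirp, and lies inside it by 26 bases for Fastkd2 and 60 for Fastk. The windows are chr1:63730375-63730674 on the plus strand for Fastkd2, chr2:69712557-69712856 on the minus strand for Fastkd1, chr12:87443646-87443945 on the plus strand for Slirp and chr5:24445186-24445485 on the minus strand for Fastk. Capitals mark every match, on either strand, to CACGTG (the canonical E-box, which MYC proteins are known to bind), CACGCG (an E-box variant) or CCGGAAG (the core of ETS sites).
Fastkd2: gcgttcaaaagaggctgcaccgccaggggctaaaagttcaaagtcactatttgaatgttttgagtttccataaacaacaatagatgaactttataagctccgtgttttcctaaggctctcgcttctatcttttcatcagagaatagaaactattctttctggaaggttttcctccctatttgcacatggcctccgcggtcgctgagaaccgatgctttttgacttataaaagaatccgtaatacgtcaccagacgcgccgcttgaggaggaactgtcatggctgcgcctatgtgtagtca
Fastkd1: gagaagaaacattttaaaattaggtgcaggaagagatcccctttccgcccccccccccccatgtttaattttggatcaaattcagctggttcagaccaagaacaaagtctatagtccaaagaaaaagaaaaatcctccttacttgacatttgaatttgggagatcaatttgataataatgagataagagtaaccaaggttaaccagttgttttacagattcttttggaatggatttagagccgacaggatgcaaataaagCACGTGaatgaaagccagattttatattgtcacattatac
Slirp: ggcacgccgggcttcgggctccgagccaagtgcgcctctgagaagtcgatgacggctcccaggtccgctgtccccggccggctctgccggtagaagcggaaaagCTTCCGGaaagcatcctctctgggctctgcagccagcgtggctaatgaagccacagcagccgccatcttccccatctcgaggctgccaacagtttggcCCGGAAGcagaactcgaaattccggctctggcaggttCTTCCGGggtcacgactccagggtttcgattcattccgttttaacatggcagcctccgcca
Fastk: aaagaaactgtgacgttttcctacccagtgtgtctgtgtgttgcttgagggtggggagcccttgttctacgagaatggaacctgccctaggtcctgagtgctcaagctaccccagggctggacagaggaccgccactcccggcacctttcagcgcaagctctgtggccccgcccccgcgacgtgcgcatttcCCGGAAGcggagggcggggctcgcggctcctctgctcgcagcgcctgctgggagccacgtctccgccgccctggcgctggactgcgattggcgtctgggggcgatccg
The Fastkd2 window holds none of the 3 motifs, and neither does that of Lrpprc. The Fastkd1 window holds CACGTG 10 bases after the start, a motif found in 7.17% of 32544 RefSeq promoters of this length. Slirp has 3 matches to CCGGAAG, at 146, 48 and 11 bases before the start, and Fastk has 1 at 58 bases before it; 8.91% of promoters hold this motif. Fastkd3 has CACGCG at 79 bases before and 33 bases after its start, against 9.33% of promoters with a match. Of the unmeasured members, Tbrg4 has 1 match to CACGCG and 2 to CCGGAAG, and Fastkd5 has 1 to CCGGAAG. A match describes letters and not a bound site, and the Fastkd2 and Fastkd1 windows are also the members' poorest in G and C, at 44.3% and 37%.

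The first comparison asks how the family differs between cells with N-Myc and cells with the empty vector. All 6 measured members stood higher in NMyc cells when the 3 genotypes were averaged. Fastkd2 differed most, by 2.16 on the log2 scale (4.48-fold). Lrpprc (3.18-fold), Fastkd1 (2.48-fold), Fastkd3 (2.23-fold), Slirp (1.82-fold) and Fastk (1.23-fold) followed. In bulk RNA like this, fewer cells of a type and less RNA per cell cannot be told apart. Fastkd2 is left out of the counts of calls. Of the other 5 members, 5 had an adjusted p under 0.05 with limma, beside 18.2% of all tested probe sets that were called higher. In 4 of these 5, every NMyc array lay above every Ctrl array, beside 10.5% of all probe sets, and Fastk was the exception. At least a 2-fold rise together with a call was met by 3 of the 5 and by 2.78% of probe sets. The median difference was 1.16 over these 5 members and -0.02 over all probe sets. Without Hom-Ctrl replicate 1 the averaged difference was 2.02 for Fastkd2, 1.69 for Lrpprc, 1.26 for Fastkd1, 1.14 for Fastkd3, 0.86 for Slirp and 0.29 for Fastk. The list was chosen with results of these arrays known, and nothing is read from how these counts compare with the shares.

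**Figure D1:**
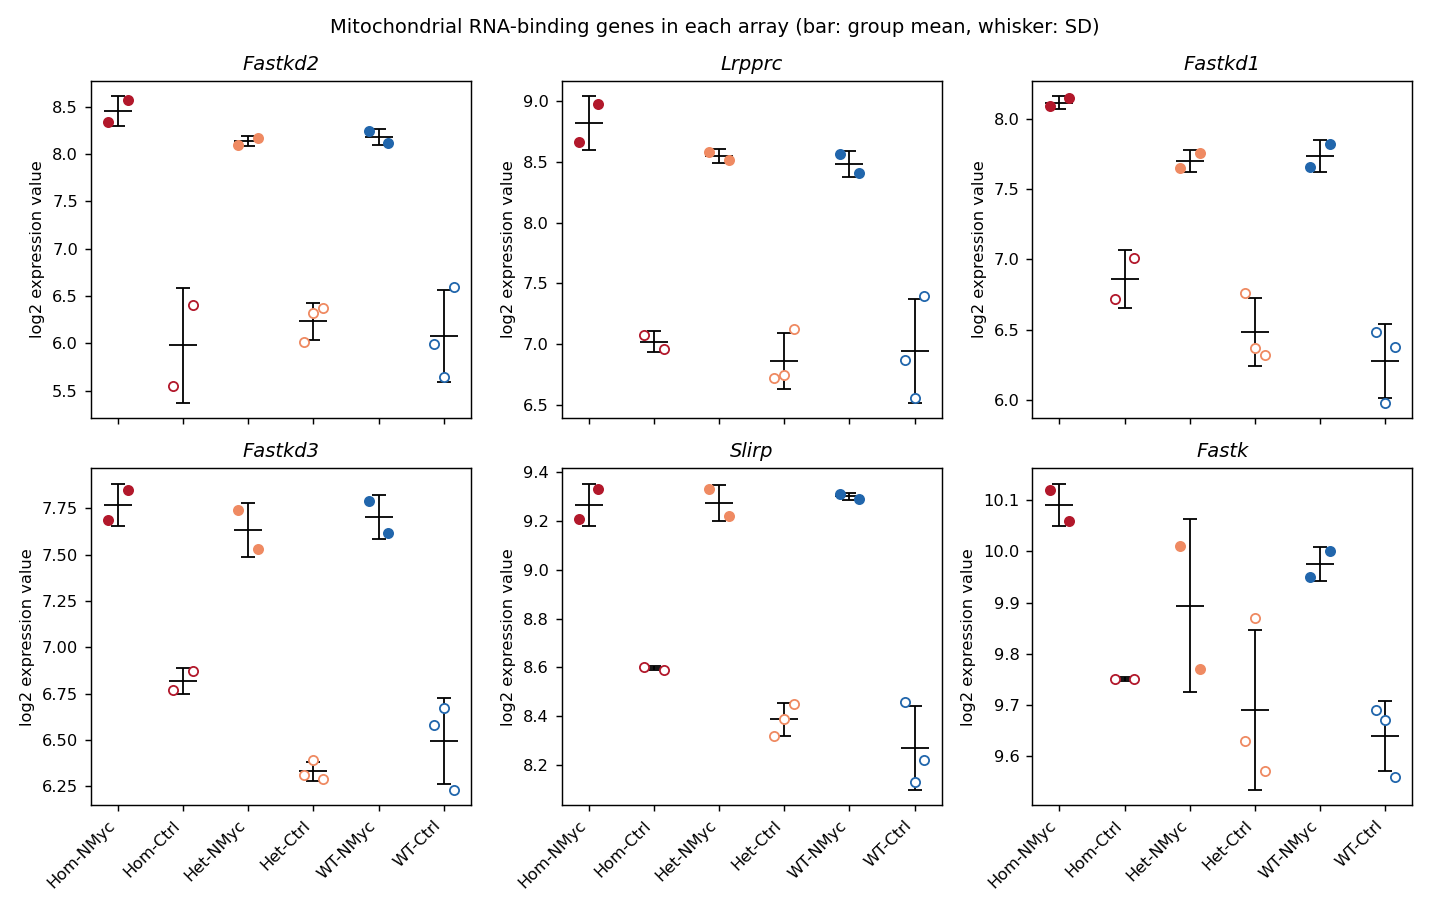
Log2 probe-set level of each measured member on every array, 1 panel per gene, with groups from left to right Hom-NMyc, Hom-Ctrl, Het-NMyc, Het-Ctrl, WT-NMyc and WT-Ctrl. Filled points are NMyc arrays, open points are Ctrl arrays, bars are group means and whiskers the SD; in every panel but that of Fastk all filled points lie above all open points.

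Fastkd2 (chr1:63730599-63753385, plus strand), the ribosomal RNA binder, was at 8.34 and 8.57 in Hom-NMyc cells, against 5.55 and 6.40 in Hom-Ctrl cells. Het-NMyc cells had 8.10 and 8.17, against 6.01, 6.32 and 6.37 in Het-Ctrl cells. WT-NMyc cells had 8.24 and 8.12, against 5.99, 5.64 and 6.60 in WT-Ctrl cells. The lowest NMyc array, of a Het library, was far above the highest Ctrl array, of a WT library, and the Ctrl arrays spread more widely than the NMyc arrays. Over all arrays the level averaged 8.26 ± 0.17 with NMyc (SD, n = 6) and 6.11 ± 0.38 with Ctrl (SD, n = 8). The averaged difference was 2.16 (SE 0.15). It was the sixth largest rise, rank 6, among 22206 probe sets. By genotype it was 2.48 in Hom (SE 0.28), 1.91 in Het (SE 0.26) and 2.10 in WT (SE 0.26). The lower of the Hom-Ctrl values belongs to the library with high Mycn. Without that library the Hom difference was 2.05.

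Fastkd1 (chr2:69686820-69712606), which in human cells lowers the level of a complex I messenger, was at 8.09 and 8.15 in Hom-NMyc cells, against 6.72 and 7.01 in Hom-Ctrl cells. Het-NMyc cells had 7.65 and 7.76, against 6.76, 6.37 and 6.32 in Het-Ctrl cells. WT-NMyc cells had 7.66 and 7.82, against 6.48, 5.98 and 6.38 in WT-Ctrl cells. No NMyc value reached down to the Ctrl values, and within each vector the Hom arrays held the highest value. Fastkd1 rose by 1.31 with NMyc (SE 0.11, 95% interval 1.08 to 1.54, limma, adjusted p = 1.26e-07). By genotype the rise was 1.26 in Hom (SE 0.20, adjusted p = 0.000417), 1.22 in Het (SE 0.18, adjusted p = 0.00017) and 1.46 in WT (SE 0.18, adjusted p = 4.17e-05). Without Hom-Ctrl replicate 1 the Hom rise was 1.11 (adjusted p = 0.00842).

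Fastkd3 (chr13:68582167-68592338), which in human cells supports translation of a cytochrome c oxidase messenger, was at 7.69 and 7.85 in Hom-NMyc cells, against 6.77 and 6.87 in Hom-Ctrl cells. Het-NMyc cells had 7.74 and 7.53, against 6.31, 6.39 and 6.29 in Het-Ctrl cells. WT-NMyc cells had 7.79 and 7.62, against 6.58, 6.67 and 6.23 in WT-Ctrl cells. The NMyc arrays of the 3 genotypes intermingled, whereas both Hom-Ctrl arrays lay above all Het-Ctrl and WT-Ctrl arrays. Fastkd3 rose by 1.16 (SE 0.09, 95% interval 0.96 to 1.35, limma, adjusted p = 1.03e-07). Its rise was 0.95 in Hom (SE 0.17, adjusted p = 0.00106), 1.30 in Het (SE 0.15, adjusted p = 2.97e-05) and 1.21 in WT (SE 0.15, adjusted p = 5.53e-05). The Hom rise was 0.90 without Hom-Ctrl replicate 1 (adjusted p = 0.0135).

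Fastk (chr5:24441038-24445295), the founding member, part of which enters mitochondria and there acts on a complex I messenger, was at 10.12 and 10.06 in Hom-NMyc cells, against 9.75 and 9.75 in Hom-Ctrl cells. Het-NMyc cells had 10.01 and 9.77, against 9.63, 9.87 and 9.57 in Het-Ctrl cells. WT-NMyc cells had 9.95 and 10.00, against 9.69, 9.67 and 9.56 in WT-Ctrl cells. The groups separated in Hom and WT and overlapped in Het, where 1 Ctrl array exceeded 1 NMyc array. Averaged over genotypes Fastk rose by 0.29 (SE 0.08, 95% interval 0.12 to 0.47, limma, adjusted p = 0.0113). After quantile normalization the difference was 0.21 with an adjusted p of 0.0790, so this call depends on the scaling. Within a single genotype Fastk was not called: 0.34 in Hom (SE 0.15, adjusted p = 0.153, and 0.324 without Hom-Ctrl replicate 1), 0.20 in Het (SE 0.14, adjusted p = 0.387) and 0.34 in WT (SE 0.14, adjusted p = 0.116).

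Lrpprc (chr17:84705247-84790786), the large pentatricopeptide-repeat partner of the messenger-stabilising complex, was at 8.66 and 8.97 in Hom-NMyc cells, against 7.08 and 6.96 in Hom-Ctrl cells. Het-NMyc cells had 8.58 and 8.51, against 6.72, 6.75 and 7.13 in Het-Ctrl cells. WT-NMyc cells had 8.56 and 8.41, against 6.87, 6.56 and 7.40 in WT-Ctrl cells. No NMyc array overlapped a Ctrl array, and WT-Ctrl held both the lowest and the highest of the Ctrl values. Lrpprc rose by 1.67 (SE 0.12, 95% interval 1.40 to 1.93, limma, adjusted p = 5.9e-08). The rise was 1.79 in Hom (SE 0.23, adjusted p = 9.63e-05), 1.68 in Het (SE 0.21, adjusted p = 4.58e-05) and 1.54 in WT (SE 0.21, adjusted p = 9.6e-05). The Hom rise was 1.85 without Hom-Ctrl replicate 1 (adjusted p = 0.0014).

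Slirp (chr12:87443896-87449924), the small RNA-recognition-motif partner that Lrpprc stabilises, was at 9.21 and 9.33 in Hom-NMyc cells, against 8.60 and 8.59 in Hom-Ctrl cells. Het-NMyc cells had 9.33 and 9.22, against 8.32, 8.39 and 8.45 in Het-Ctrl cells. WT-NMyc cells had 9.31 and 9.29, against 8.46, 8.13 and 8.22 in WT-Ctrl cells. The 6 NMyc values were tightly grouped across genotypes, at 9.28 ± 0.05 (SD, n = 6), and the 8 Ctrl values averaged 8.40 ± 0.17 (SD, n = 8), with Hom-Ctrl the highest. Slirp rose by 0.86 (SE 0.08, 95% interval 0.69 to 1.04, limma, adjusted p = 6.36e-07). The rise was 0.67 in Hom (SE 0.15, adjusted p = 0.00584), 0.89 in Het (SE 0.14, adjusted p = 0.000282) and 1.03 in WT (SE 0.14, adjusted p = 8.43e-05). Without Hom-Ctrl replicate 1 the Hom rise was 0.67 (adjusted p = 0.0338), and without Hom-NMyc replicate 2 it was 0.61 and no longer called (adjusted p = 0.0687).

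**Figure D2:**
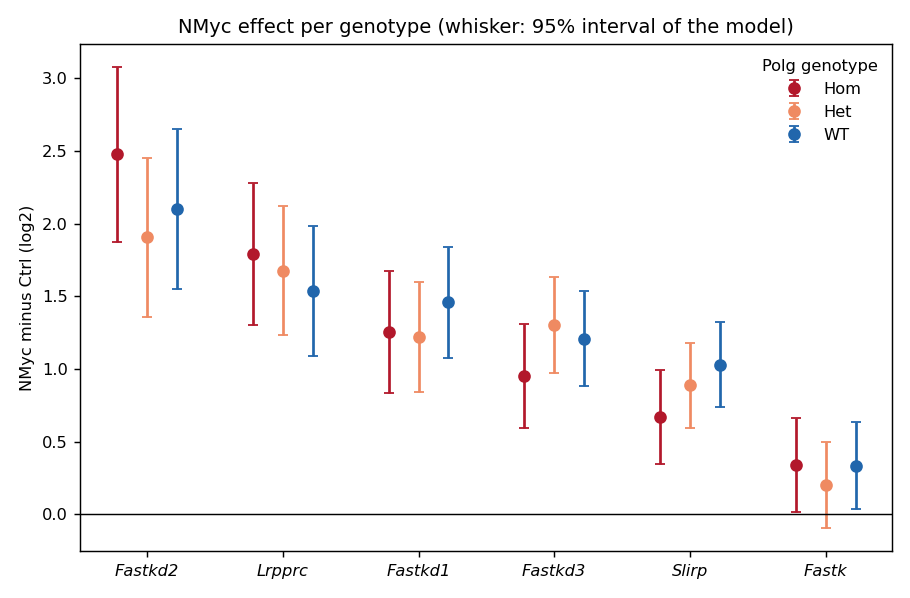
NMyc minus Ctrl on the log2 scale for each measured member, in Hom, Het and WT cells, with 95% intervals from the limma model; the line at 0 stands for equal levels. The intervals of Lrpprc, Fastkd1, Fastkd3 and Slirp lie above 0 in each genotype, and the Fastk interval reaches below 0 in Het (-0.09 to 0.50). Those of Fastkd2, whose difference lay behind the choice of the list, are drawn but not read as a test.

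Within each genotype 4 of the 5 members other than Fastkd2 were called higher with NMyc, beside 10.7% of all probe sets in Hom, 11.1% in Het and 10.1% in WT. At least a 2-fold rise with a call was reached by 2 of these 5 in Hom (3.55% of probe sets), 3 in Het (3.19%) and 4 in WT (2.58%). The median over all 6 measured members was 1.10 in Hom, 1.26 in Het and 1.33 in WT. Whether the genotype altered the NMyc effect was tested as a difference of differences, and 0 of 6 members passed with limma. In Hom minus WT the call rate over all probe sets was 0.0811%, and the members ran between -0.36 (Slirp, SE 0.21, 95% interval -0.80 to 0.07, adjusted p = 0.661) and 0.37 (Fastkd2, SE 0.38, 95% interval -0.44 to 1.19, adjusted p = 0.849). In Hom minus Het the call rate was 0.0315%, and the members ran between -0.35 (Fastkd3, SE 0.23, 95% interval -0.84 to 0.13) and 0.57 (Fastkd2, SE 0.38, 95% interval -0.24 to 1.38). In Het minus WT the call rate was 0.0%, with 730 of 22206 probe sets at an unadjusted p under 0.05, and the members ran between -0.24 (Fastkd1) and 0.14 (Lrpprc). None of the 6 members had an unadjusted p under 0.05 in these 3 tests. Both Fastkd2 values rested on 1 library: without Hom-Ctrl replicate 1 they were -0.05 (Hom minus WT) and 0.14 (Hom minus Het). Without the same library Slirp was at -0.36 in Hom minus WT, Fastkd3 at -0.40 in Hom minus Het, and Fastkd1 turned to -0.11 in Hom minus Het, against 0.036 with it.

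The samples' codes form 3 consecutive runs, and NMyc and Ctrl cells of 1 genotype could be set against each other within a run in 5 pairs. These pairs are single arrays against single arrays and carry no test. The NMyc minus Ctrl difference was 1.52 to 2.60 for Fastkd2, 1.00 to 1.99 for Lrpprc, 1.08 to 1.68 for Fastkd1 and 0.82 to 1.39 for Fastkd3. It was 0.61 to 1.18 for Slirp and 0.15 to 0.44 for Fastk. Every measured member stood higher with NMyc in 5 of 5 pairs, Fastkd2 included, whose difference lay behind the choice of the list. Run 1 held Ctrl arrays only, and Hom cells had a pair in run 2 only. The arrays are those of the main comparison. The share of all probe sets higher in every pair was not counted, so nothing is read from this.

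The second comparison asks whether the members differ with the Polg genotype. With the Ctrl vector, 0 of 6 members were called between Hom and WT with limma, beside 3.91% of all probe sets called in either direction. Fastkd1 came nearest. It averaged 6.86 ± 0.21 in Hom-Ctrl cells (SD, n = 2), 6.48 ± 0.24 in Het-Ctrl cells and 6.28 ± 0.26 in WT-Ctrl cells (SD, n = 3 each). The Hom minus WT difference of Fastkd1 was 0.58 (SE 0.18, 95% interval 0.20 to 0.96), with an unadjusted p of 0.00513 and an adjusted p of 0.0879. Slirp was the other member at an unadjusted p under 0.05, with a difference of 0.33 (SE 0.14, adjusted p = 0.234). Fastkd3 differed by 0.33 (SE 0.15, adjusted p = 0.299), Fastk by 0.11, Lrpprc by 0.08 and Fastkd2 by -0.10 (SE 0.26, 95% interval -0.65 to 0.45). In Fastkd1, Fastkd3, Slirp and Fastk both Hom-Ctrl arrays lay above all WT-Ctrl arrays, which 14.1% of probe sets did. Without Hom-Ctrl replicate 1 the difference was 0.73 for Fastkd1 (adjusted p = 0.104), 0.38 for Fastkd3, 0.32 for Slirp, 0.11 for Fastk, 0.016 for Lrpprc and 0.33 for Fastkd2, whose sign had turned. Within code runs the Fastkd1 difference between Hom-Ctrl and WT-Ctrl was 0.24 in run 1 and 1.03 in run 2.

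Between Hom-Ctrl and Het-Ctrl cells 0 of 6 members were called with limma, beside 2.4% of all probe sets. Fastkd3 was nearest, at 6.82 ± 0.07 in Hom-Ctrl cells (SD, n = 2) and 6.33 ± 0.05 in Het-Ctrl cells (SD, n = 3). Its difference was 0.49 (SE 0.15, 95% interval 0.16 to 0.82), with an unadjusted p of 0.00627, the only one under 0.05 among the members, and an adjusted p of 0.119. Within code runs it was 0.46 in run 1 and 0.48 in run 2, whereas the Fastkd1 pairs disagreed, at -0.048 in run 1 and 0.64 in run 2. Averaged over the arrays, Fastkd1 differed by 0.38 (SE 0.18, adjusted p = 0.342), Slirp by 0.21, Lrpprc by 0.16, Fastk by 0.06 and Fastkd2 by -0.26. Fastkd3 and Slirp had both Hom-Ctrl arrays above all Het-Ctrl arrays, as had 15.2% of probe sets. Without Hom-Ctrl replicate 1 the Fastkd3 difference was 0.54, that of Fastkd1 was 0.52, that of Slirp 0.21, that of Lrpprc 0.096 and that of Fastk 0.064, and that of Fastkd2 turned to 0.17. Both comparisons use the same Hom-Ctrl arrays, so they are not separate evidence. Between Het-Ctrl and WT-Ctrl cells the 6 differences lay between -0.16 and 0.21, 0 members were called (limma, adjusted p = 0.999 for each) and 0 had an unadjusted p under 0.05. The call rate over all probe sets was 0.0%, with 935 at an unadjusted p under 0.05.

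**Figure D3:**
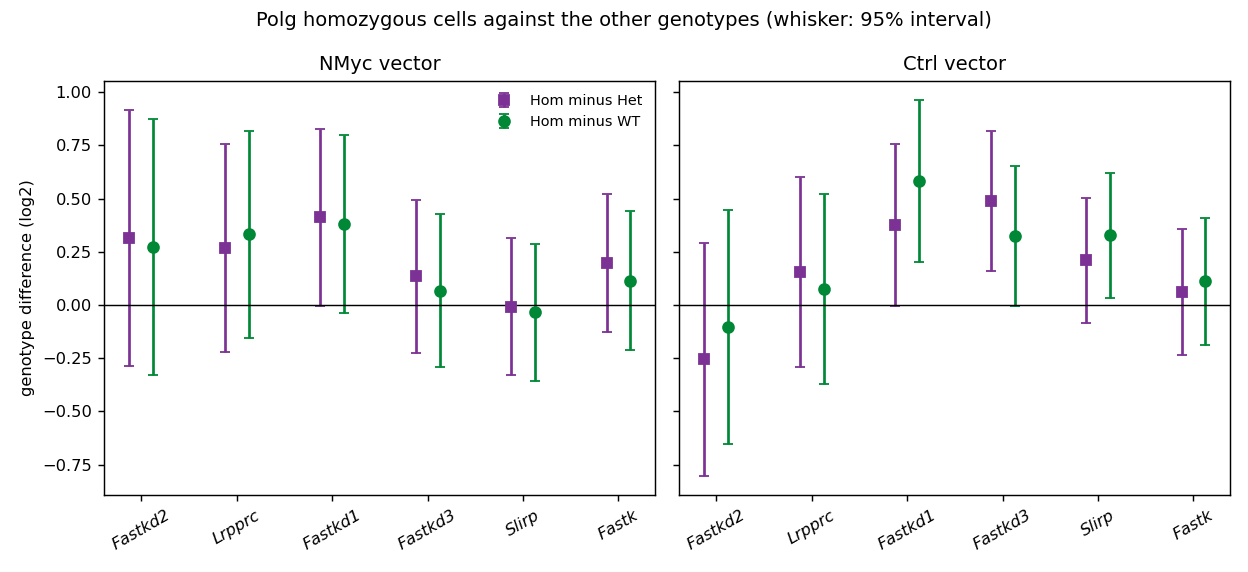
Differences between Polg genotypes on the log2 scale for each measured member, Hom minus Het and Hom minus WT, in NMyc cells (left) and Ctrl cells (right), with 95% intervals from the limma model. In Ctrl cells the Fastkd1 interval for Hom minus WT (0.20 to 0.96) and the Fastkd3 interval for Hom minus Het (0.16 to 0.82) lie above 0, but no member passed adjustment over all probe sets.

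With the NMyc vector 0 of 6 members were called in any pair of genotypes with limma, 0 had an unadjusted p under 0.05, and 0.0% of all probe sets were called. Over all probe sets an unadjusted p under 0.05 was found for 1873 in Hom minus WT, 1093 in Hom minus Het and 576 in Het minus WT. Fastkd1 again had the largest difference among the members, with 8.12 ± 0.05 in Hom-NMyc cells, 7.70 ± 0.08 in Het-NMyc cells and 7.74 ± 0.11 in WT-NMyc cells (SD, n = 2 each). Hom minus Het was 0.41 for Fastkd1 (SE 0.20, 95% interval -0.00 to 0.83, adjusted p = 0.978) and Hom minus WT was 0.38 (SE 0.20, 95% interval -0.04 to 0.80, adjusted p = 0.622). Within code runs the Fastkd1 Hom minus WT difference was 0.43 in run 2 and 0.33 in run 3. Fastkd2 differed by 0.31 and Lrpprc by 0.27 in Hom minus Het, and by 0.27 and 0.33 in Hom minus WT. Slirp differed least, by -0.01 in Hom minus Het and -0.03 in Hom minus WT (95% interval -0.36 to 0.29). In Fastkd1, Fastkd2, Lrpprc and Fastk both Hom-NMyc arrays lay above all WT-NMyc arrays, as in 25.9% of probe sets, and above all Het-NMyc arrays, as in 21.2%. Het minus WT lay between -0.08 and 0.06 for the 6 members.

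Ordered by group mean, each measured member had all 3 NMyc groups above all 3 Ctrl groups. Hom-NMyc was the highest group for Fastkd2, Lrpprc, Fastkd1, Fastkd3 and Fastk, and WT-NMyc was highest for Slirp, where the 3 NMyc means were 9.27 (Hom), 9.28 (Het) and 9.30 (WT) and their arrays overlapped. Hom-Ctrl was the highest Ctrl group for every measured member except Fastkd2, where it was the lowest at 5.98 ± 0.60 (SD, n = 2), against 6.23 ± 0.19 in Het-Ctrl and 6.08 ± 0.49 in WT-Ctrl cells (SD, n = 3 each). That place rests on Hom-Ctrl replicate 1: the other Hom-Ctrl array, at 6.40, lay above both means. The arrays of Het-NMyc and WT-NMyc overlapped in every member, as did those of Het-Ctrl and WT-Ctrl. The lowest NMyc group and the highest Ctrl group by mean did not overlap in any measured member. For Fastk these were Het-NMyc and Hom-Ctrl, but Het-NMyc (lowest 9.77) did overlap Het-Ctrl (highest 9.87). Fastkd2 is included here although its difference lay behind the choice of the list. The share of all probe sets with such an order was not counted, so nothing is read from it.

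Markers of differentiated cells moved with the vector as well. In NMyc cells 7 of 7 megakaryocyte markers fell (median -1.83), as did 7 of 9 monocyte and macrophage markers (median -1.27). So did 10 of 12 neutrophil markers (median -0.84, with Elane and Mpo higher) and 4 of 5 eosinophil markers (median -1.25). Of 10 mast cell markers 9 fell (median -0.61), and Ms4a2 rose by 0.83 (limma, adjusted p = 1.1e-05). Mcpt4, among those that fell, was above the negative control median on at most 7 arrays. The log2 of the summed marker level was 10.30 to 10.44 on NMyc arrays and 12.19 to 12.82 on Ctrl arrays for megakaryocytes, and 11.95 to 12.17 against 13.28 to 14.12 for monocytes and macrophages. It was 15.32 to 15.45 on NMyc arrays and 15.55 to 15.93 on Ctrl arrays for neutrophils, 13.88 to 14.23 against 14.53 to 15.13 for mast cells, and 9.66 to 10.05 against 11.21 to 11.90 for eosinophils. The 11 blood and progenitor markers had a summed level of 14.05 to 14.17 on NMyc arrays and 14.26 to 14.32 on Ctrl arrays. Of 9 stromal markers 2 fell, Thy1 (-1.97) and Pecam1 (-0.89). The others, among them Col1a1, Col1a2, Col3a1 and Pdgfrb, were not called. The summed level of these 9 markers was 10.16 to 10.53 on NMyc arrays and 10.78 to 11.86 on Ctrl arrays. That sum counts Thy1 and Pecam1, so it does not show a fall of the markers that were not called. Of those, Dcn, Lum and Cdh5 were above the negative control median on at most 7 arrays. Of 5 erythroid markers only Tfrc, the transferrin receptor, was called, and it rose by 1.83 (SE 0.20, limma, adjusted p = 3.12e-06). Of 6 T and NK markers 0 were called, and 1 of 7 B lymphoid markers rose and 1 fell. Dcn, Ccr3, Klrb1c and Ncr1 were above the negative control median on no array. Markers also differed between Ctrl cells of the genotypes. Of 12 neutrophil markers 3 were called lower in Hom-Ctrl cells, both against Het-Ctrl and against WT-Ctrl cells, with a summed level of 15.55 to 15.58 in Hom-Ctrl, 15.89 to 15.93 in Het-Ctrl and 15.81 to 15.91 in WT-Ctrl cells. Of 9 monocyte and macrophage markers 2 were called lower against WT-Ctrl and 0 against Het-Ctrl cells, with 13.28 to 13.86 in Hom-Ctrl, 13.70 to 14.05 in Het-Ctrl and 13.82 to 14.12 in WT-Ctrl cells. Of 10 mast cell markers 2 were called higher in Hom-Ctrl cells against either genotype, with 14.90 to 15.13 in Hom-Ctrl, 14.57 to 14.83 in Het-Ctrl and 14.53 to 14.82 in WT-Ctrl cells. Of 5 eosinophil markers 1 was lower against either. Of 11 blood and progenitor markers 2 were called higher against Het-Ctrl and 1 against WT-Ctrl cells, and 1 of 9 stromal markers was higher against WT-Ctrl. The part of these shifts in the values of the members and Cox18 was not tested.

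The members work beside other nuclear-encoded proteins of mitochondrial RNA handling, and 75 such genes in 6 lists were set next to them. Of the 73 with a probe set, 56 rose with NMyc, 3 fell and 14 were not called (limma, averaged over genotypes). Their median difference was 0.59. Over all probe sets 18.2% were called higher in this comparison. The lists were drawn up with earlier results of these arrays known and are described without a test of the list. In Hom cells 40 rose and 0 fell, in Het cells 39 rose and 1 fell, and in WT cells 36 rose and 0 fell. The shares of all probe sets called higher were 10.7% in Hom, 11.1% in Het and 10.1% in WT.

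Among 9 genes that cut transfer RNAs out of the transcripts or finish their ends, 6 rose and 0 fell (median 0.81). Elac2, the enzyme that cuts behind transfer RNAs, rose by 1.42 (SE 0.08, adjusted p = 7.6e-09), and Prorp, the nuclease that cuts in front of them, by 1.41 (SE 0.12, adjusted p = 2.36e-07). Trnt1, which adds the CCA end, rose by 0.92. Of 13 genes of pseudouridylation and the RNA granule in which Fastkd2 works, 11 rose and 1 fell (median 0.59). Noa1, a GTPase of ribosome assembly, rose by 1.78 (SE 0.15, adjusted p = 2.14e-07), Gtpbp10 by 0.90, the pseudouridine synthase Trub2 by 0.76 and the helicase Dhx30 by 0.64. Ddx28, another helicase of the granule, fell by 0.26 (SE 0.09, adjusted p = 0.0272).

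RNA decay, the process that Lrpprc and Slirp hold back, had 5 of 6 genes higher and 0 lower (median 0.86). Pnpt1 and Supv3l1, the nuclease and helicase of the mitochondrial degradosome, rose by 1.18 (SE 0.10, adjusted p = 1.96e-07) and 1.16 (SE 0.09, adjusted p = 8.49e-08), and the oligonuclease Rexo2 rose by 1.23. Of 21 genes that modify ribosomal and transfer RNA, 14 rose and 1 fell (median 0.41), led by Qtrt1 at 1.51 and Pus1 at 1.32, with Osgepl1 lower at -0.49 (SE 0.13, adjusted p = 0.00695). In mitochondrial transcription 5 of 7 rose and 0 fell (median 0.77), among them the polymerase Polrmt at 0.84 and its initiation factor Tfb2m at 1.28. In mitochondrial translation 15 of 17 rose and 1 fell (median 0.60): the elongation factors Tufm and Gfm1 rose by 1.28 and 1.14, the ribosomal protein Ptcd3 by 1.34, and Mss51 was at -0.47 (SE 0.12, adjusted p = 0.00661). Fastkd2 had a larger difference than any of the 73, but that difference lay behind the choice of the members, so nothing is read from its place. Lrpprc had a larger difference than any of the 73 except Noa1. Members and lists were both chosen with results of these arrays known, so nothing is read from that place either. Between genotypes only Cox18 of the 73, which inserts a cytochrome c oxidase subunit into the membrane, was called. Hom-Ctrl cells stood 0.69 above WT-Ctrl (SE 0.16, limma, adjusted p = 0.0245) and 0.80 above Het-Ctrl (SE 0.16, adjusted p = 0.0150). Over all probe sets 3.91% were called between Hom-Ctrl and WT-Ctrl cells and 2.4% between Hom-Ctrl and Het-Ctrl cells, in either direction. Without Hom-Ctrl replicate 1 these Cox18 differences were 0.84 (adjusted p = 0.0316) and 0.95 (adjusted p = 0.0225), and without Hom-Ctrl replicate 2 they were 0.54 (adjusted p = 0.234) and 0.65 (adjusted p = 0.200). Both calls were also lost with only the groups compared (adjusted p = 0.155 and 0.0674). The first was lost with only AFFX controls left out (0.0523) and without WT-Ctrl replicate 2 (0.0597), and the second without Het-Ctrl replicate 2 (0.0517).

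**Figure D4:**
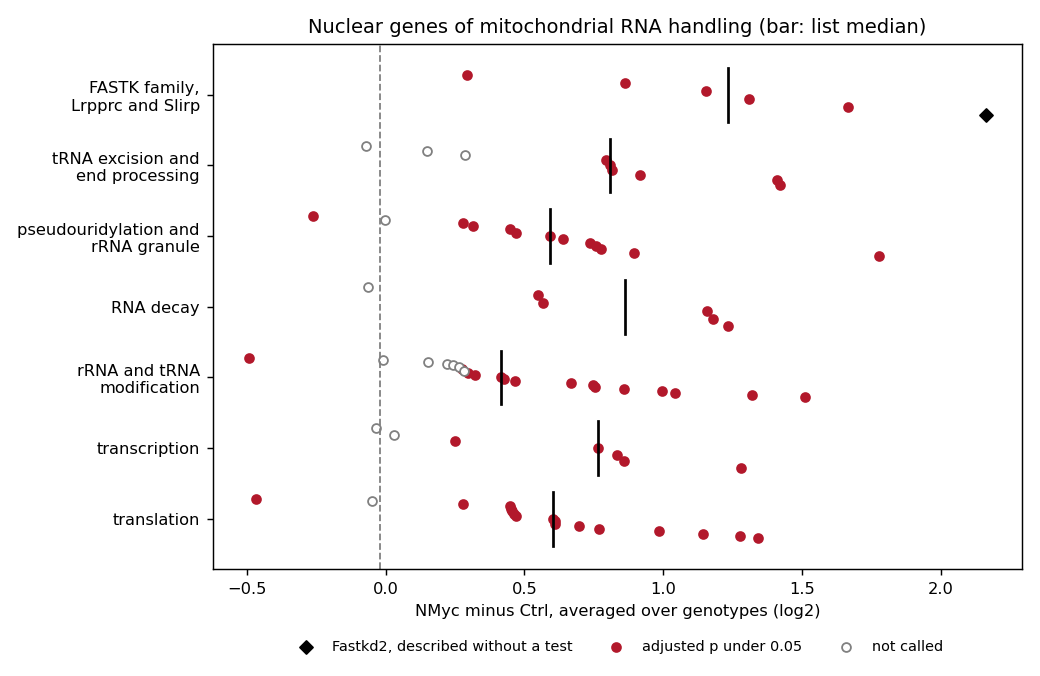
NMyc minus Ctrl averaged over genotypes, on the log2 scale, for the measured members and for the 6 lists of other mitochondrial RNA genes; each point is a gene, filled red where the limma adjusted p is under 0.05 and open otherwise, the diamond is Fastkd2, shown without a test, the black bar is the list's median (1.23 over the 6 measured members) and the dashed line the median of all probe sets (-0.02). Fastkd2, whose difference lay behind the choice of the members, lies at 2.16, above every gene of the 6 lists.

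Genes with the most similar profile were sought for each member over the 6 group means, each gene centred on its own mean, by the root mean square difference in log2 units among 18477 symbols. For Fastkd2 these were Ryk (0.13), Polr1b (0.14) and Smpd4 (0.16). The measure is not scaled to the size of a gene's differences, and few probe sets rose as much as Fastkd2 (rank 6). Its distances are therefore not compared with those of the other members. Nearest to Lrpprc were Dis3 (0.05), Hgh1 (0.06) and Noa1 (0.06). Fastkd1 was most like Rsl1d1 (0.05), Cyc1 (0.05) and Gspt1 (0.07). Fastkd3 was most like Nup205 (0.04), Sms (0.05) and Hsp90aa1 (0.06). Slirp was most like Pphln1 (0.03), Fh1 (0.04) and Ap1s1 (0.04), and Fastk was most like Cdc23 (0.02), Mtrf1l (0.03) and Vangl2 (0.04). No member was among the 3 nearest of another, which among 18477 symbols says little about how alike the members are. The nearest other member was Lrpprc for Fastkd2 (rank 26), Fastkd3 for Fastkd1 (rank 114) and Fastkd1 for Lrpprc (rank 198). It was Fastkd1 for Fastkd3 (rank 267), Fastkd3 for Slirp (rank 849) and Slirp for Fastk (rank 13357). These ranks depend on the size of the differences, and all profiles share the same 14 arrays.

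Of the members, 3 have a gene on the other strand that starts within 1000 bases upstream. Mtrr, the reductase that keeps methionine synthase active, has starts 41 and 106 bases upstream of Fastkd3 and rose by 0.88 with NMyc (SE 0.11, limma, adjusted p = 1.3e-05), beside 1.16 for Fastkd3. Mdh1b starts 307 bases upstream of Fastkd2 and differed by 0.03 (SE 0.08, adjusted p = 0.814), beside 2.16 for Fastkd2. Alkbh1 starts 57 bases upstream of Slirp and is not listed in the probe table used here.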

How the data were processed

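RNA of 14 HPC samples was hybridised to Affymetrix whole-transcript arrays. The values deposited by the authors are log2 levels of probe sets. The authors used Affymetrix Expression Console, according to the submitters' processing notes; how it summarised and normalized the probes is not given in these sources. Values ran between 2.24 and 13.5, hence the log2 reading, and array medians lay within 0.084 of each other. Scaling of this kind can hide a change common to most transcripts. No further normalization was applied.

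Of 28846 probe sets, 6640 control sets, recognised by their IDs, were left out. Symbols come from the platform annotation. All 14 arrays entered a single limma model of 6 group means (version 3.58.1, R 4.3.3; lmFit, contrasts, eBayes; 8 residual and 7.3 prior degrees of freedom). In all, 13 differences were tested on both sides, with Benjamini-Hochberg adjustment over 22206 probe sets and a call at an adjusted p under 0.05. Every adjusted p is from this fit unless another setting is named. The fit was tested on simulated data.

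Genes named are all members, Mycn, Myc and Polg, up to 4 genes with the smallest p per pathway list, genes of those lists called between genotypes, and the 3 symbols most like each member. Other genes of the lists that fell, marker genes and divergent neighbours were named after their values were seen. The members and lists were chosen with earlier results of these data known. Promoter sequences and positions are RefSeq's, build GRCm38.p6; all 8 members matched. Motifs were searched as exact letters on both strands.

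Replicate numbers were tested as pairing: deviations from group means correlated at 0.03 to 0.27 between same-numbered Ctrl arrays, at 0.07 to 0.11 between NMyc arrays and at -0.13 to 0.03 between NMyc and Ctrl arrays. In all, 9 other settings and 14 fits without 1 array were run.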

Additional observations from a re-analysis of the deposited data

How the results depend on the processing

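No member's NMyc minus Ctrl difference changed sign in the 23 alternative settings. Of the 5 members other than Fastkd2, the count called higher on average was 5, except 4 after quantile normalization (Fastk, 0.21, adjusted p = 0.0790). By genotype it was 4 in the 9 other settings. Without 1 array it was 3 to 4 in Hom (Slirp was lost without Hom-NMyc replicate 2) and 4 in Het and WT. The averaged difference without 1 array ran between 2.02 and 2.30 for Fastkd2 and between 0.25 and 0.33 for Fastk. With a replicate block the averaged count was 5 and no member's call changed. Deviations of same-numbered arrays correlated at 0.03 to 0.27 within Ctrl and at 0.07 to 0.11 within NMyc. Between NMyc and Ctrl arrays they correlated at -0.13 to 0.03 by number and at -0.01 to 0.13 within a code run.

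Signs turned only in genotype differences and differences of NMyc effects, none of them called, and the cause was not tested. With a replicate block, Hom minus WT with Ctrl was 0.062 for Fastkd2 and the NMyc effect (Hom minus Het) was -0.068 for Lrpprc. With code run as a block, Hom minus WT with Ctrl was 0.015 for Fastkd2. With code runs 2 and 3 only, Hom minus WT with Ctrl was 0.28 for Fastkd2 and -0.021 for Lrpprc and Hom minus Het with Ctrl was 0.061 for Fastkd2 and the NMyc effect (Hom minus WT) was -0.024 for Fastk and -0.011 for Fastkd2 and the NMyc effect (Hom minus Het) was -0.25 for Fastkd1. After quantile normalization, Hom minus WT with NMyc was -0.016 for Fastkd3 and the NMyc effect (Hom minus WT) was -0.063 for Fastk and the NMyc effect (Hom minus Het) was -0.044 for Fastkd1. After median centring, Hom minus Het with NMyc was 0.014 for Slirp.

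Ranges over the settings without 1 array, where a sign turned, were as follows. Hom minus WT with Ctrl was -0.53 to 0.33 for Fastkd2 and -0.12 to 0.30 for Lrpprc. Hom minus Het with Ctrl was -0.68 to 0.17 for Fastkd2. Het minus WT with Ctrl was -0.038 to 0.11 for Fastk, -0.067 to 0.42 for Fastkd2 and -0.27 to 0.15 for Lrpprc. Hom minus WT with NMyc was -0.018 to 0.15 for Fastkd3 and -0.096 to 0.027 for Slirp. Hom minus Het with NMyc was -0.069 to 0.053 for Slirp. Het minus WT with NMyc was -0.20 to 0.038 for Fastk, -0.11 to 0.046 for Fastkd1, -0.10 to 0.016 for Fastkd2, -0.17 to 0.035 for Fastkd3, -0.013 to 0.14 for Lrpprc and -0.079 to 0.026 for Slirp. The NMyc effect (Hom minus WT) was -0.026 to 0.042 for Fastk and -0.053 to 0.80 for Fastkd2. The NMyc effect (Hom minus Het) was -0.11 to 0.18 for Fastkd1 and -0.044 to 0.27 for Lrpprc. The NMyc effect (Het minus WT) was -0.46 to 0.025 for Fastkd2, -0.011 to 0.23 for Fastkd3 and -0.086 to 0.33 for Lrpprc.

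Of the 73 listed genes of mitochondrial RNA handling, 51 to 57 were called higher over the 23 settings. Counts over all probe sets moved more. The 868 calls of Hom minus WT with Ctrl were 442 with only AFFX controls left out, 182 with only the groups compared, and 99 without Hom-Ctrl replicate 2. The 533 calls of Hom minus Het with Ctrl were 231, 216 and 55 in the same settings and 880 with an intensity trend. The 18 and 7 calls of the NMyc effect in Hom minus WT and Hom minus Het were 48 and 19 with that trend, and 0 and 1 with only the groups compared. The 3924 calls of NMyc minus Ctrl in Hom were 2597 with code runs 2 and 3 only and 1987 without Hom-NMyc replicate 2. Each member had a single probe set, so a second one could not be compared. The number of arrays, and for Fastkd2 in Ctrl cells a signal close to the negative controls, limit these values.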

Other observations

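RNAs of the mitochondrial chromosome were looked at through 9 unnamed probe sets whose IDs carry M in the place of the chromosome. Among named probe sets this place matched the RefSeq chromosome in 19506 of 19508. Which RNA each of the 9 measures is not given, so they cannot be matched to the targets of a member. With NMyc, averaged over genotypes, 1 of the 9 was higher and 1 lower (limma), and the 9 differences lay between -0.55 and 0.27 with a median of -0.06. The 5 measured members other than Fastkd2 had a median of 1.16 in the same comparison. By genotype, 1 of the 9 probe sets was called lower with NMyc in Hom (-0.70, limma, adjusted p = 0.0418). Over all 22206 probe sets 1557 were called lower in Hom. In Het and WT 0 of the 9 were called. Between Hom-NMyc and WT-NMyc cells the 9 lay between -0.48 and -0.02 (median -0.21), with 0 called. Between Het-NMyc and WT-NMyc cells the median was -0.26, with 0 called. Both use the same 2 WT-NMyc arrays. Between Hom-NMyc and Het-NMyc cells the median was 0.03, with 0 called. In Ctrl cells the medians were -0.04 (Hom minus WT), -0.05 (Hom minus Het) and 0.01 (Het minus WT), with 0 called in each. Of the 9, 7 averaged above 11.9, the 99th percentile of all values, and whether such bright probe sets are compressed was not tested.

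Myc, the endogenous relative of the vector's gene, was at 10.35 and 10.64 in Hom-NMyc cells, against 11.19 and 11.34 in Hom-Ctrl cells. Het-NMyc cells had 9.87 and 10.03, against 11.31 to 11.50 in Het-Ctrl cells, and WT-NMyc cells had 9.45 and 9.93, against 11.38 to 11.45 in WT-Ctrl cells. No NMyc array overlapped a Ctrl array. The averaged difference was -1.32 (SE 0.10, limma, adjusted p = 4.51e-08).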
